A study of Mus musculus with 6 samples.

Results

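The genes described here are 40 cytokines, chemokines and innate immune sensors, with the receptor, inhibitors, protease and effector enzyme that act beside them, measured in mouse brain. They were chosen by name from the 27578 genes named on the array, and every non-control probe carrying 1 of these names was taken, which gave 48 probes. Gene expression was measured in 6 brain samples of male C57BL/6N mice, 3 wild type and 3 Pla2g2e-/-, with 1 sample per array and 1 colour (Cy3). The deleted gene, Pla2g2e, codes for a phospholipase A2 of the secreted family, which frees fatty acids from phospholipids outside cells. All 6 samples are called sham-operated brain by their titles and descriptions, whereas their shared treatment text describes occlusion of the middle cerebral artery for 60 min, a model of transient brain ischaemia. The values below are therefore those of the groups titled wild-type sham and knockout sham. The labels give neither the age of the mice, nor the brain region, nor which part of Pla2g2e is deleted. They do not say whether the 3 samples of a group came from separate animals, so a p-value here measures only how these samples vary, which may be technical variation.

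Cytokines are secreted signals that cells of the immune system, glia and endothelium use to raise or restrain inflammation, and chemokines are the subset that attracts leukocytes. Sensors such as Toll-like receptors detect microbial or damage-associated molecules and activate NF-kB, a transcription factor that drives many cytokine and chemokine genes and also the gene of its own inhibitor. In the uninjured brain most inducible cytokines are scarce, while a few ligands, among them Cx3cl1, Cxcl12, Cxcl14, Il34 and Il33, are made constantly by neurons or glia.

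Several of these genes are known targets of NF-kB, so their promoters are shown with an NF-kB-type motif. The motif searched was the kappaB consensus, the site that NF-kB dimers recognise, on both strands of RefSeq promoter windows of 300 bases (250 before and 50 after the start, GRCm38.p6). It occurred in 1480 of all 32851 windows (4.51%). Of the 40 genes, 29 had a window, 35 windows in all, and 9 windows of 9 genes held the motif, those of Il6, Il1r1, Csf1, Cxcl1, Cxcl2, Cxcl10, Nfkbia, Nlrp3 and Tlr2. A match describes letters in the window and is not a shown binding site. The 110 bases before the start are printed for the 5 genes that hold a whole motif there, with the motif in capitals. For Nfkbia the match is on the other strand, and in Cxcl1 and Cxcl2 matches on both strands overlap, shifted by 1 base.
Il6, chr5:30013004-30013113, plus strand: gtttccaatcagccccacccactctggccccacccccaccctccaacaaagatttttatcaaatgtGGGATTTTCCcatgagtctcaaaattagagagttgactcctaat
Cxcl1, chr5:90891135-90891244, plus strand: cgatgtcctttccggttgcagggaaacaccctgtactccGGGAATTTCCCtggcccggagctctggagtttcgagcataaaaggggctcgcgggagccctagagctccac
Cxcl2, chr5:90903789-90903898, plus strand: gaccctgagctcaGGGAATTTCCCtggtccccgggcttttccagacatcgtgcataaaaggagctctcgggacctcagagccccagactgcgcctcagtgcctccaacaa
Cxcl10, chr5:92348890-92348999, minus strand: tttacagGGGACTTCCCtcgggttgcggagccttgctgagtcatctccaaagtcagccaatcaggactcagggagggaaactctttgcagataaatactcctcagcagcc
Nfkbia, chr12:55492648-55492757, minus strand: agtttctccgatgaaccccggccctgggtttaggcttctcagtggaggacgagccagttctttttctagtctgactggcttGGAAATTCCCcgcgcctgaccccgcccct
The first base of the motif lay 44 bases before the start in Il6, 71 in Cxcl1, 97 in Cxcl2, 103 in Cxcl10 and 29 in Nfkbia. Of these 5 genes, Il6 and Cxcl10 read higher and Cxcl1 and Nfkbia lower on average in knockout, none of them called, and Cxcl2 was not tested.

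What the array reads is a 60-base probe per gene, or several. The first 30 bases are printed for the 3 genes with the smallest p-values (Il21, Il6 and Casp1), for the gene with the widest spread (Cxcl1), and for the probe pairs of Cxcl10 and Tlr4, of which 1 probe was well above background on all 6 arrays and the other on none.
Il21: tgtttgtgttcatggcttcttatttaagac
Il6: ctgttacctagccagatggtttcttggaat
Casp1: ctatgctgagaatcgtgccaataagaagcc
Cxcl1: agaagtgcagagagatagagtttagtatta
Cxcl10, detected probe: gctttgcattgtatatggaagaacttgtgt
Cxcl10, dark probe: ttcctagtgtctagaagtggagcagttatt
Tlr4, detected probe: ttgagaacattttggggaggaagaaaggtc
Tlr4, dark probe: gaaattgggtactcatgtttacatgtggac
The longest run of bases shared by probes of different genes of the set was 13, so no 2 of these genes were read through the same sequence. Probe positions are given below in mm9, the build of the files. Whether a probe lies in an exon or a UTR was not determined here.

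Of the non-control spots, 82.0% to 85.3% were well above background on each array, and none was saturated. Neuronal, astrocyte, oligodendrocyte, endothelial and microglial markers were well above background on all 6 arrays (10, 10, 8, 8 and 14 genes). Of 9 genes typical of liver, lung or muscle, 5 were well above background on all 6 arrays as well and 2, Alb and Ckm, on none, so the mark alone does not tell brain genes from others. Marker lists of some other structures and cells differed between arrays. The summed level of 7 striatal genes was 23.3, 15.2 and 56.1 in wild type and 16.3 to 18.5 in knockout (a sum of linear levels, each divided by its array's 75th percentile). The 4 arrays of wild type 1, 2 and 3 and knockout 1 were on 1 slide, and knockout 2 and 3 on another. Over the 22579 genes tested, limma called none at an adjusted p under 0.05 (Benjamini-Hochberg, smallest 0.191), while 2807 had an unadjusted p under 0.05. The 2 Pla2g2e probes differed by 0.33 ± 0.18 and -0.59 ± 0.26 (log2, SE), with adjusted p of 0.494 and 0.437. Since the deleted part is not known, these probes check nothing.

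By the stricter of the scanner software's detection marks (well above background), 31 genes were detected on all 6 arrays by at least 1 probe, 7 on some arrays and 2, Il23a and Cxcl2, on none. That share, 77.5%, was close to the 78.6% of all genes on the array. By the laxer mark (positive and significant) 36 genes were detected on all 6 arrays and the other 4 on some. The genes without a constant signal were mostly cytokines of activated lymphocytes and myeloid cells. Il4 was well above background on 1 knockout array, Ifng on 1 wild-type array, and Il1rn, which encodes the antagonist of the interleukin-1 receptor, on 2 knockout arrays. Il23a, Cxcl2, Il4, Ifng and Il1rn were therefore not tested, since a test required a probe well above background on all 3 arrays of at least 1 group. Another 4 genes were tested although some of their arrays were not well above background. Tnf was above it on 3 wild-type and 2 knockout arrays, Il17a likewise on 3 and 2, and Il10 on 3 and 1, while Il1a was above it on 1 wild-type and 3 knockout arrays. A gene that entered through 1 group only was kept for being high there, so the direction of these 4 genes is no finding.

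**Figure D1:**
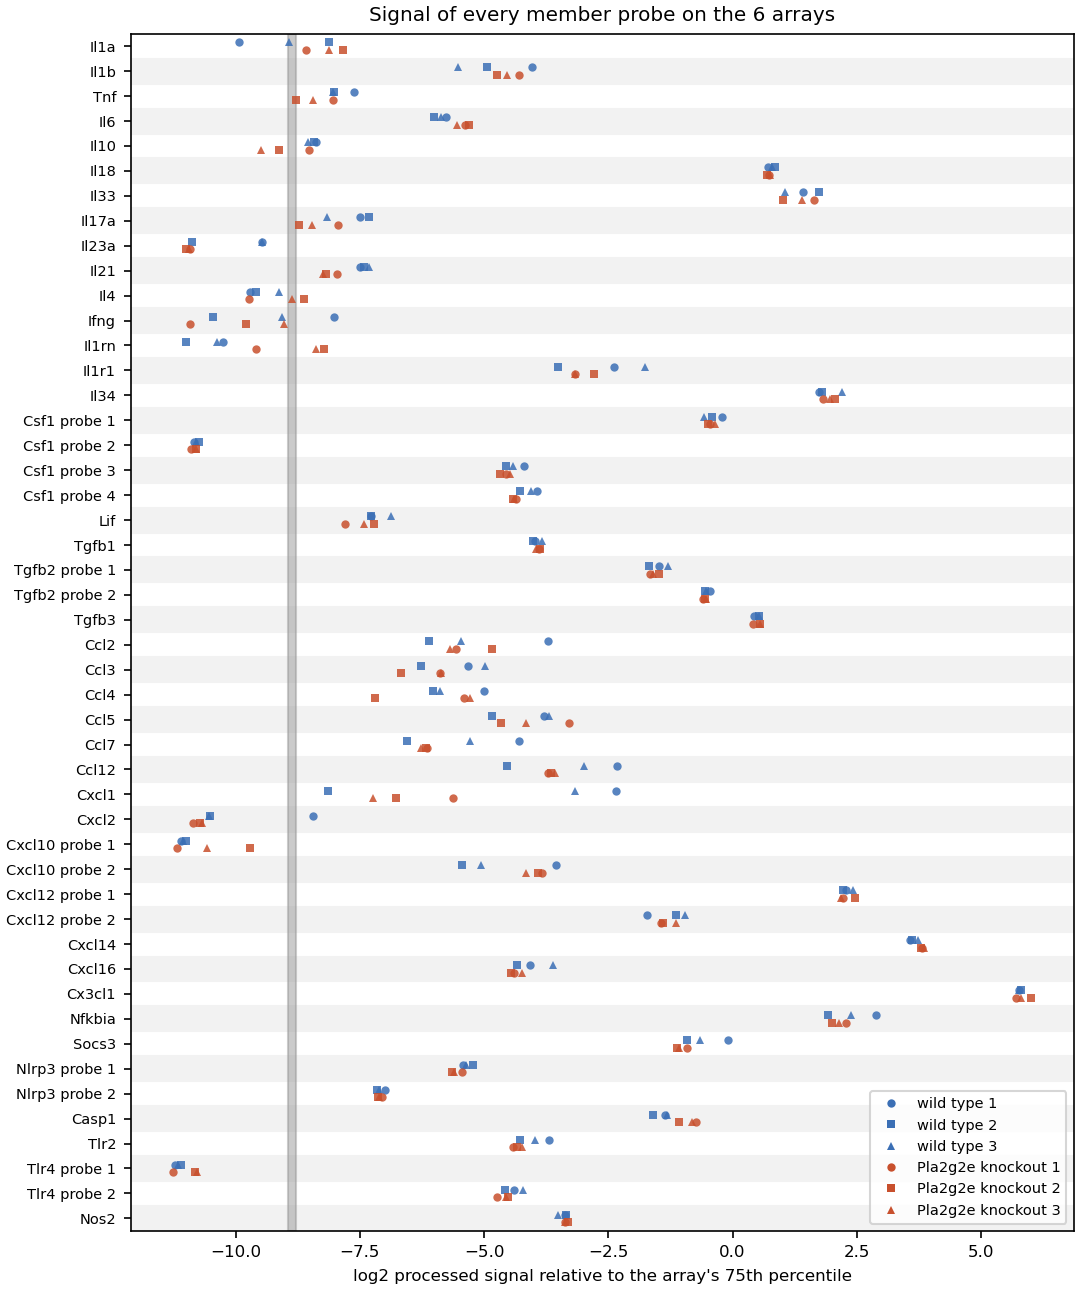
Level of each of the 48 probes on the 6 arrays (1 line per probe, horizontal axis log2 processed signal minus the array's 75th percentile), wild type in blue and knockout in red, with the symbol giving the array; the grey band marks where signals began to be well above background on the 6 arrays. Cx3cl1 lies highest, near 5.8, and the arrays of Cxcl1 scatter from -8.14 to -2.35. Il10 and Il1a scatter across the band, and Tnf lies above it except on knockout 2.

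None of the 35 tested genes was called between knockout and wild-type brain at an adjusted p under 0.05 in limma, where 8 had an unadjusted p under 0.05, and 0% of all 22579 genes were called. In knockout 12 of the 35 genes read higher and 23 lower, where 53.1% of all genes read lower. The higher ones include Il1a and the lower ones Tnf, Il10 and Il17a, whose direction is no finding. The groups did not overlap for 7 genes, of which 3 read higher (Il6, Casp1 and Cxcl14) and 4 lower (Il21, Tnf, Socs3 and Nlrp3), beside 19.8% of all genes in either direction, 7.6% with knockout higher and 12.2% with knockout lower. The 8 genes with an unadjusted p under 0.05 were Il6, Casp1 and Cxcl14 with knockout higher and Il21, Il17a, Nlrp3, Tnf and Il10 with knockout lower, beside 12.4% of all genes, 3.08% higher and 9.35% lower. Tnf, Il17a and Il10 stand in these counts although they entered through wild type only, so the counts are read without them. Among the 31 genes detected on all 6 arrays, 6 had groups that did not overlap (19.3% of all such genes) and 5 an unadjusted p under 0.05 (12.09% of all such genes). Their median difference was -0.06 (log2), beside -0.01 for all such genes. The direction of small differences depended on the scaling. With each array's median in place of its 75th percentile, the median difference of all genes moved to 0.13, 17 of the 35 genes read higher and 18 lower, and 27.1% of all genes read lower.

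**Figure D2:**
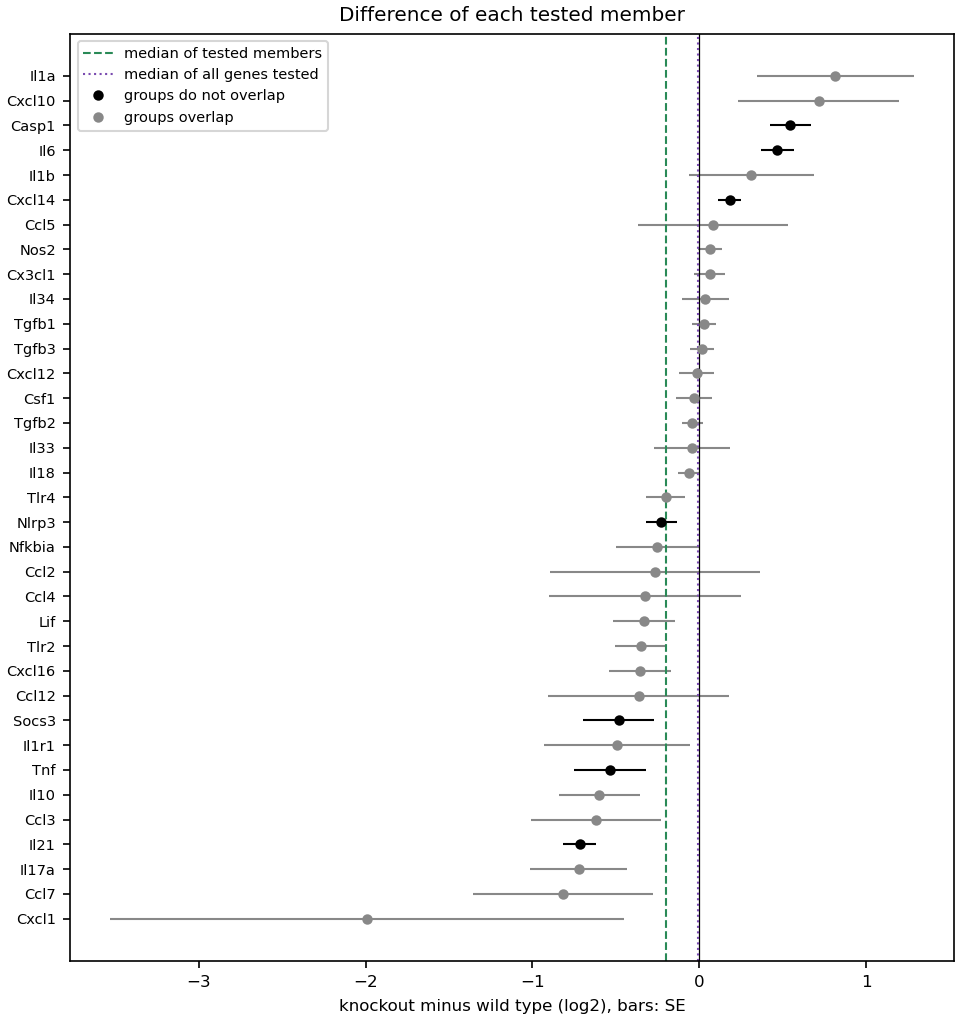
Log2 difference, knockout minus wild type, of each of the 35 tested genes, ordered by size, with bars of 1 standard error from the fit over all genes (n = 3 and 3); black points mark groups that do not overlap, and vertical lines the median of these genes (-0.20) and of all genes (-0.01). Cxcl1 has the largest difference and the widest error (-1.99 ± 1.54), whereas Il21, Il6 and Casp1 have differences of -0.72, 0.47 and 0.54 with errors of 0.10 to 0.12. The median of these genes includes Tnf, Il10, Il17a and Il1a, which entered through 1 group only.

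Among the interleukins and TNF, Il6 read higher in every knockout sample. Il6 (chr5:30346367-30346426), a cytokine that induces the acute phase response and acts on neurons and glia, read -5.77, -6.01 and -5.86 in wild type and -5.39, -5.30 and -5.55 in knockout. All 3 knockout arrays lay above all 3 wild-type arrays. The means stood 1.38-fold apart (log2 difference 0.47 ± 0.10, SE), with an adjusted p of 0.255. With a term for the slide, which compares knockout 1 with the 3 wild-type arrays of its slide, the difference was 0.49 (adjusted p = 0.824). In a bulk sample such as this, a different number of cells of a type and a different amount of RNA per cell cannot be told apart.

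Il21 had the smallest p-value of the set, in the other direction. Il21 (chr3:37121681-37121740), a cytokine of activated T helper cells, read -7.49, -7.42 and -7.32 in wild type and -7.96, -8.19 and -8.24 in knockout. The groups did not overlap, and the lowest wild-type array was above the highest knockout array by more than the range of either group. Knockout was 1.65-fold lower (-0.72 ± 0.10, adjusted p = 0.191), and -0.55 within the shared slide (adjusted p = 0.730). These readings were well above background on all 6 arrays, whose lowest signals so marked were -8.95 to -8.78. The markers of blood leukocytes had a summed level of 4.37 to 14.3 in wild type and 5.23 to 7.51 in knockout. On average 18 of 19 read lower in knockout. Bright genes such as S100a9 weigh most in that sum. Among its T cell markers, Cd3e read -1.72, -1.92 and -1.67 in wild type and -1.92, -1.82 and -1.95 in knockout. Cd4 read 0.30, 0.40 and 0.53 against 0.26, 0.40 and 0.40, and Cd3d -7.07, -7.73 and -6.89 against -7.64, -7.88 and -7.44. Cd8a, well above background on 4 arrays, read -8.31, -8.49 and -8.12 against -8.59, -8.65 and -8.66. The part of leukocytes in the difference was not tested.

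Tnf, Il10 and Il17a lay near the limit of detection, each not well above background on at least 1 knockout array. Tnf (chr17:35336795-35336854), a central mediator of inflammation, read -7.62, -8.01 and -8.03 in wild type and -8.03, -8.79 and -8.45 in knockout, with wild type 3 and knockout 1 nearly equal. Its difference was -0.54 ± 0.22 (adjusted p = 0.400). Its probe is printed 10 times on each array, and the SD over those spots was 0.219 to 0.553, each value being the mean of these spots. Il10 (chr1:132920943-132921002), which restrains inflammation, read -8.38, -8.42 and -8.54 in wild type and -8.52, -9.13 and -9.49 in knockout, so that knockout 1 lay inside the wild-type range. Its difference was -0.60 ± 0.24 (adjusted p = 0.400), with an SD of 0.347 to 0.736 over the 10 spots of an array. Il17a (chr1:20724404-20724463), the signature cytokine of Th17 cells, read -7.49, -7.31 and -8.17 in wild type and -7.95, -8.72 and -8.46 in knockout, with wild type 3 below knockout 1. Its difference was -0.72 ± 0.29 (adjusted p = 0.398). With a term for the slide the differences shrank to -0.15 for Tnf, -0.07 for Il10 and -0.29 for Il17a. For each of these genes the 2 lowest arrays were knockout 2 and 3, on the slide that held no wild-type array. The same 2 arrays were the lowest for Il21, Nlrp3 and Socs3. A normexp background correction, whose offset of 50 shrinks the differences of dim genes by itself, gave -0.13 for Tnf, -0.10 for Il10, -0.14 for Il17a, -0.17 for Il21 and 0.14 for Il6.

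The interleukin-1 family held both abundant and scarce members. Il18 (chr9:50389761-50389820), which macrophages release after cleavage by caspase-1, read 0.71, 0.86 and 0.80 in wild type and 0.74, 0.69 and 0.75 in knockout (difference -0.063 ± 0.066, adjusted p = 0.710). Il33 (chr19:30035101-30035160), a nuclear alarmin of oligodendrocytes and astrocytes, read 1.41, 1.74 and 1.05 in wild type and 1.64, 1.02 and 1.40 in knockout (-0.045 ± 0.23, adjusted p = 0.947). The groups overlapped for both, and Il33 varied more than Il18 between arrays of a group (SD 0.329 against 0.056). Within each group the arrays had the same order for Il33 as for the oligodendrocyte markers, whose summed level was 120, 158 and 104 in wild type and 120, 94.4 and 116 in knockout, and the part of these cells in the value was not tested. Il1b, the secreted interleukin-1, read -4.83 ± 0.75 (SD, n = 3) in wild type and -4.52 ± 0.22 (SD, n = 3) in knockout. Il1a, its relative that also acts at the cell surface, read -8.99 ± 0.91 and -8.18 ± 0.37, and the receptor of both, Il1r1, read -2.55 ± 0.89 and -3.04 ± 0.22. For all 3 the wild-type arrays were spread more widely than the knockout arrays, and the groups overlapped.

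None of the 6 growth factors of glia and macrophages reached an unadjusted p under 0.05, and their differences ran from -0.33 to 0.04. Il34 (chr8:113265835-113265894), the neuronal ligand of the Csf1 receptor on which microglia depend, read 1.74, 1.80 and 2.19 in wild type and 1.82, 2.05 and 1.97 in knockout (0.036 ± 0.14, adjusted p = 0.930). Csf1, the other ligand of that receptor, read -0.40 ± 0.18 and -0.44 ± 0.08 (SD, n = 3 each). Tgfb3 (chr12:87397804-87397863), 1 of 3 transforming growth factors of the beta family, read 0.43, 0.53 and 0.52 in wild type and 0.42, 0.55 and 0.56 in knockout (0.015 ± 0.072, adjusted p = 0.944). Tgfb1 and Tgfb2 differed by 0.03 ± 0.07 and -0.04 ± 0.06. The 3 Tgfb genes had an SD within groups of 0.041 to 0.071, below the median of all genes (0.130). Lif, a cytokine that signals through gp130 as Il6 does, differed by -0.33 ± 0.19 (adjusted p = 0.505). Microglial markers, whose cells need Il34 and Csf1, had a summed level of 92.6 to 98.9 in wild type and 82.3 to 101 in knockout.

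Of the chemokines, the 3 that neurons and glia make constantly varied little over the 6 arrays by the probe that stands for each gene. Cx3cl1 (chr8:97306185-97306244), the fractalkine through which neurons signal to microglia, read 5.77, 5.80 and 5.77 in wild type and 5.70, 6.00 and 5.81 in knockout (0.061 ± 0.091, adjusted p = 0.797). Cxcl12 (chr6:117131227-117131286), which guides migrating neurons and leukocytes through Cxcr4, read 2.28, 2.23 and 2.42 in wild type and 2.23, 2.47 and 2.18 in knockout (-0.017 ± 0.10, adjusted p = 0.958). The groups overlapped for both, within a range of 1.23-fold or less in either group by these probes. Cxcl14 (chr13:56390078-56390137), a chemokine expressed constitutively in epithelia and in interneurons, read 3.57, 3.62 and 3.74 in wild type and 3.82, 3.79 and 3.86 in knockout. Every knockout array was above every wild-type array, by a mean of 1.13-fold (0.18 ± 0.07, adjusted p = 0.392), with 0.18 within the shared slide as well. With median scaling, under which all genes had a median of 0.13, the difference was 0.32.

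The inducible chemokines, which recruit monocytes, neutrophils and T cells, varied widely between arrays of a group, and the groups overlapped for each of them. Cxcl1 (chr5:91321845-91321904), a neutrophil attractant, read -2.35, -8.14 and -3.17 in wild type and -5.62, -6.77 and -7.24 in knockout. Wild type 1 and 3 were the highest arrays and wild type 2 the lowest of all 6, a range of 55.4-fold within wild type against 3.07-fold within knockout. The difference was -1.99 ± 1.54 (adjusted p = 0.613), and -0.89 without wild type 1, -3.78 without wild type 2 and -1.30 without wild type 3. Ccl2 (chr11:81850650-81850709), a monocyte attractant, read -3.72, -6.11 and -5.46 in wild type and -5.56, -4.84 and -5.68 in knockout. Its neighbour Ccl7 (chr11:81860656-81860715) read -4.30, -6.55 and -5.29 in wild type and -6.15, -6.17 and -6.27 in knockout, and Ccl12 (chr11:81916764-81916823), in the same cluster, read -2.33, -4.54 and -2.98 and -3.70, -3.65 and -3.58. In all 3 of these genes wild type 1 was the highest and wild type 2 the lowest wild-type array, and the knockout arrays lay between them. The range within wild type was 4.62-fold to 5.25-fold, while Ccl7 and Ccl12 spanned only 1.09-fold in knockout.

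Cxcl10 (chr5:92775781-92775840), an interferon-induced attractant of T cells, read -3.55, -5.44 and -5.06 in wild type and -3.83, -3.91 and -4.15 in knockout. Wild type 1 was above every knockout array and wild type 2 and 3 below, so the groups overlapped (0.71 ± 0.48, adjusted p = 0.568). The difference was 1.28 without wild type 1 and 0.34 without wild type 2. Ccl3 and Ccl4, macrophage inflammatory proteins, read -5.52 ± 0.67 and -5.64 ± 0.55 (SD, n = 3) in wild type and -6.14 ± 0.46 and -5.96 ± 1.07 (SD, n = 3) in knockout. Ccl5, an attractant of T cells, read -4.11 ± 0.64 and -4.03 ± 0.69, and Cxcl16, the ligand of Cxcr6, read -4.01 ± 0.36 and -4.37 ± 0.12. None of these 4 had groups that did not overlap.

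Wild type 2 was the lowest wild-type array for 10 of the 12 tested chemokines and for 20 of all 35 tested genes, where it was the lowest for 38.5% of all genes. Wild type 2 also had the lowest sum of blood leukocyte markers in its group (12.6, 4.37 and 14.3 in wild type, 5.23 to 7.51 in knockout, 17 of 19 markers well above background on all 6 arrays). Choroid plexus markers had the same order as leukocyte markers in wild type (20.0, 5.30 and 24.8, and 8.03 to 14.6 in knockout, 7 of 8 markers well above background on all 6 arrays), as did those of border macrophages (2.90, 2.22 and 4.83, and 2.18 to 2.44 in knockout, 12 of 13). By these sums, in which bright genes weigh most, the 3 lists were highest in wild type 3, whereas Cxcl1, Ccl2, Ccl7 and Ccl12 were highest in wild type 1. Single markers differed in order. Bright ones such as S100a9 and Ttr were highest in wild type 3, while Lcn2, Retnlg, Ccr2, Otx2 and Folr1 were highest in wild type 1 and lowest in wild type 2. Meningeal markers summed to 14.8, 11.8 and 20.0 in wild type and 9.58 to 12.97 in knockout (11 of 11 lower on average in knockout), and those of pericytes and smooth muscle to 3.94 to 4.11 and 2.83 to 3.56 (8 of 8 lower). The part of these cells in the chemokine levels was not tested. Without wild type 2, 14 of the 35 genes had an unadjusted p under 0.05 (14.8% of all genes) and 0 were called. For 18 the groups did not overlap (35.1% of all genes). Both counts were the highest of those with 1 array left out. Wild type 2 was singled out for being low in these genes, and fewer arrays overlap less by construction, so these counts are no finding. The median difference of the 35 genes was -0.20, -0.28 without wild type 2 and -0.03 without wild type 1. These counts and medians include Tnf, Il10, Il17a and Il1a, which entered through 1 group only. Over the 31 genes detected on all 6 arrays, the median with no array left out was -0.06.

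**Figure D3:**
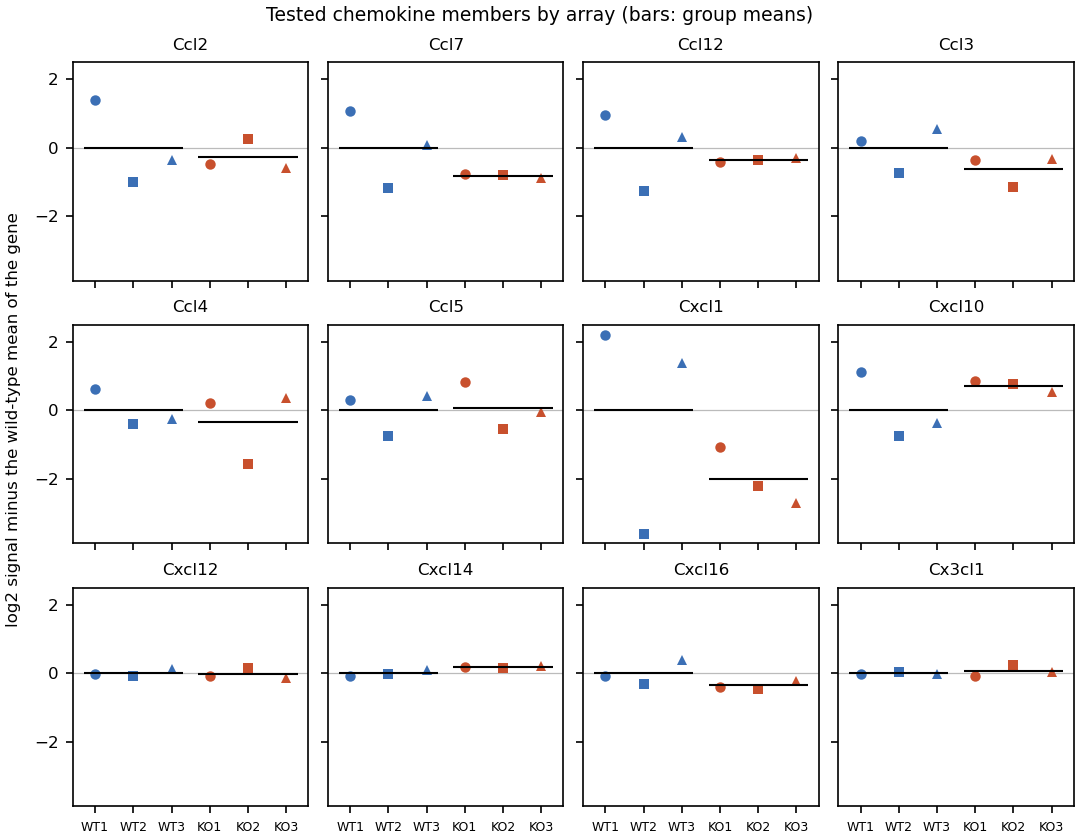
The 12 tested chemokines, 1 panel each, on the 3 wild-type arrays (blue) and the 3 knockout arrays (red), as log2 signal minus the gene's wild-type mean, with bars at the group means. Cx3cl1, Cxcl14 and Cxcl12 are flat, while in Ccl2, Ccl7, Ccl12 and Cxcl1 wild type 1 is the highest and wild type 2 the lowest wild-type array.

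The spread between arrays of a group was wide for part of the set. The median SD within groups was 0.269 (log2) over the 35 tested genes and 0.130 over all genes, and 25 of the 35 were above the all-gene median. Past the 95th percentile of all genes were 11, namely Il1a, Il1b, Il1r1, Ccl2, Ccl3, Ccl4, Ccl5, Ccl7, Ccl12, Cxcl1 and Cxcl10. The means of these 11 in wild type ran from -8.99 (Il1a) to -2.55 (Il1r1). By the range within wild type alone 10 genes were past the 95th percentile, and by the range within knockout alone 4. At the other end, Il18, Tgfb2, Tgfb1, Tgfb3, Cxcl14 and Nos2 had an SD of 0.041 to 0.071, at percentiles 4.98 to 20.3 of all genes.

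**Figure D4:**
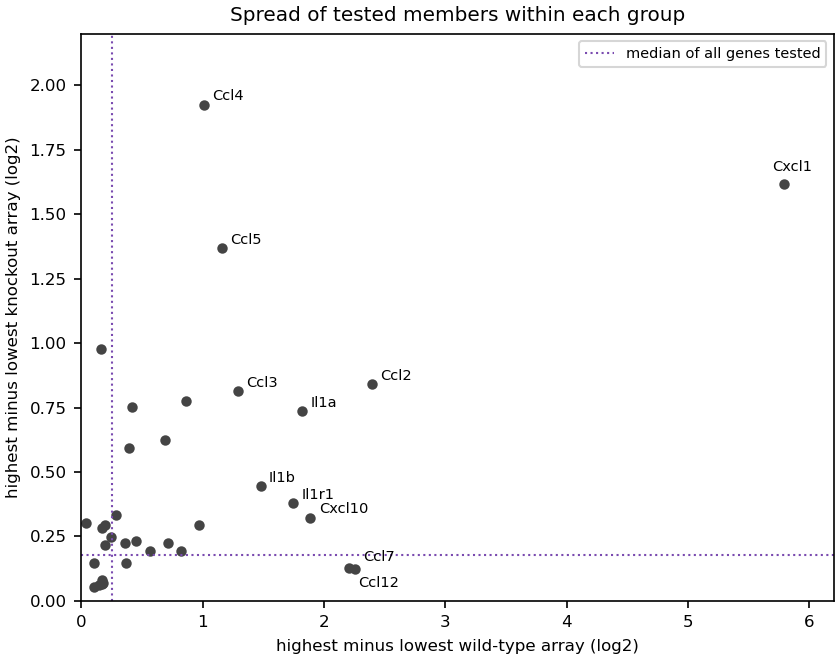
Range between the highest and the lowest array (log2) within wild type (horizontal) against that within knockout (vertical), 1 point for each of the 35 tested genes, with dotted lines at the medians of all genes (0.254 and 0.177). The 11 genes with the widest spread are named: Cxcl1 lies farthest right, and Ccl7 and Ccl12 are wide in wild type and narrow in knockout.

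Casp1 had the largest difference among the sensors and their protease. Casp1 (chr9:5307206-5307265), which cleaves the precursors of interleukin-1 beta and interleukin-18, read -1.36, -1.60 and -1.31 in wild type and -0.74, -1.08 and -0.82 in knockout. The groups did not overlap, knockout being 1.46-fold higher (0.54 ± 0.12, adjusted p = 0.260), and the difference was 0.68 within the shared slide (adjusted p = 0.765). Nlrp3 (chr11:59378554-59378613), the sensor that activates caspase-1, read -5.43, -5.23 and -5.36 in wild type and -5.43, -5.65 and -5.60 in knockout. The groups did not overlap, although wild type 1 and knockout 1 were nearly equal, and the difference of -0.23 ± 0.09 (adjusted p = 0.394) was -0.10 within the shared slide, -0.08 with median scaling and -0.04 with quantile normalization. The substrates of caspase-1, Il1b and Il18, had overlapping groups, as given above. Tlr2, the receptor for bacterial lipoproteins, read -3.98 ± 0.28 (SD, n = 3) in wild type and -4.33 ± 0.10 (SD, n = 3) in knockout, and Tlr4, the receptor for endotoxin, -4.40 ± 0.18 and -4.60 ± 0.12. Neither had an unadjusted p under 0.05.

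Neither intracellular inhibitor was called. Socs3 (chr11:117827480-117827539), which shuts off JAK-STAT signalling by cytokines such as Il6, read -0.09, -0.91 and -0.66 in wild type and -0.92, -1.11 and -1.07 in knockout. The groups did not overlap, although wild type 2 and knockout 1 were nearly equal, and wild type 1 stood above all others. The difference was -0.48 ± 0.21 (adjusted p = 0.420), and -0.25 without wild type 1. Nfkbia (chr12:56590945-56591440, a probe that spans more genome than its length), the inhibitor of NF-kB that NF-kB itself induces, read 2.89, 1.91 and 2.39 in wild type and 2.29, 2.00 and 2.14 in knockout (-0.25 ± 0.25, adjusted p = 0.689). The difference was -0.0077 without wild type 1 and -0.49 without wild type 2. Wild type 1 was the highest and wild type 2 the lowest array, as in Cxcl1, Ccl2 and Ccl7. Nos2, the inducible nitric oxide synthase of activated macrophages, read -3.41 ± 0.09 and -3.35 ± 0.04 (SD, n = 3 each), with little spread.

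Several probes per gene were present for 6 genes, and no gene had tested probes that differed in sign. For Csf1 the 3 tested probes differed by -0.03 ± 0.11, -0.19 ± 0.11 and -0.30 ± 0.10, and the last of these (chr3:107548521-107548580) had groups that did not overlap (adjusted p over all probes = 0.367). It shares 31 bases with the probe beside it, while the fourth Csf1 probe (chr3:107553659-107553718) was well above background on no array. The second Cxcl12 probe (chr6:117125026-117125085) read -1.72, -1.14 and -0.96 in wild type and -1.44, -1.39 and -1.14 in knockout, with a wider spread in wild type than the first (SD 0.40 against 0.10). The 2 Cxcl12 probes differed by -0.02 and -0.05, and the 2 Tgfb2 probes by -0.04 and -0.09. The second Nlrp3 probe (chr11:59379981-59380040) differed by -0.01 ± 0.07, where the first differed by -0.23. For Cxcl10 and Tlr4 the dark probes printed above (chr5:92776616-92776675 and chr4:66590077-66590136) gave no second reading.

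Other genes of the same pathways gave 0 calls as well. Of 33 tested receptors of these ligands, 8 read higher and 25 lower in knockout, where 53.1% of all genes read lower. The groups did not overlap for 5 (15.2%, all lower), beside 19.8% of all genes, 12.2% with knockout lower. In limma 3 had an unadjusted p under 0.05 (9.09%), beside 12.4% of all genes. Those 3 were Cxcr4, the receptor of Cxcl12 (-0.75 ± 0.20, adjusted p = 0.301), Il1rl1, the receptor of Il33 (-0.42 ± 0.13, adjusted p = 0.324), and Cxcr6, the receptor of Cxcl16 (-0.47 ± 0.15, adjusted p = 0.343). Cxcr4 read -5.74, -5.37 and -5.40 in wild type and -6.50, -6.42 and -5.84 in knockout, all knockout arrays below all wild-type arrays. Their ligands Cxcl12, Il33 and Cxcl16 had overlapping groups.

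Of 53 tested genes of sensing and NF-kB signalling, 8 had groups that did not overlap, 3 higher and 5 lower. Lbp, which carries endotoxin to its receptor, read -2.93, -3.66 and -2.82 in wild type and -4.32, -4.80 and -3.77 in knockout. All knockout arrays were below all wild-type arrays (-1.16 ± 0.33, adjusted p = 0.310). Irak3, an inhibitor of Toll-like receptor signalling, differed by -0.58 ± 0.18 and Nlrp1a, an inflammasome sensor, by -0.44 ± 0.17. Of 22 JAK-STAT and SOCS genes 1 had groups that did not overlap and 0 an unadjusted p under 0.05. Of 23 target genes of these pathways 5 had groups that did not overlap, among them Ptgs2, the inducible cyclooxygenase (0.47 ± 0.14, adjusted p = 0.316), and Vcam1, the endothelial adhesion molecule (-0.46 ± 0.16, adjusted p = 0.360). Of 42 further cytokines and chemokines 8 had groups that did not overlap, with Il17c (0.69 ± 0.21) and Tnfsf13b, a survival factor of B cells (0.46 ± 0.15), higher and Il19 (-0.38 ± 0.11) lower. The shares in these lists, 4.55% to 21.7%, are read against the 19.8% of all genes.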

How the data were processed

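Total RNA (200 ng per sample, per the labels' protocols) was labelled with Cy3 and hybridised to Agilent arrays of design 026655. Per the file headers, spots were quantified with Agilent Feature Extraction 12.1.1.1 (protocol GE1_1200_Jun14, a grid on mm9), and the deposited values are intensities. The processed signal is an intensity that the software had background-subtracted, and it gave surrogate values to 2368 to 3150 dim spots per array. Mean signal and local background are intensities of the same spots, as deposited.

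From the files, control spots and spots marked as outliers (68 to 530 per array) were left out, processed signals were put on the log2 scale, spots of a probe were averaged, and the 75th percentile over probes was subtracted array by array. The number of arrays limits the precision, and no 2 arrays shared identical values. Differences were fitted with limma 3.58.1 (R 4.3.3, lmFit and eBayes, robust options off) over 22579 genes, with Benjamini-Hochberg adjustment. The fit needed all arrays of at least 1 group well above background and 2 values per group, and a gene was read by its brightest tested probe. The code was tested on simulated data, with 200 of 22336 genes changed. At an adjusted p under 0.05 in limma it recovered 0% of log2 changes of 0.5, 67.5% of changes of 1 and 91.5% of changes of 2. A gene that was not called may therefore still differ by a small amount.

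Groups and replicate numbers came from the titles. Same-numbered arrays deviated from their group means with correlations of -0.016, -0.135 and -0.118, so the numbers were not used as pairs. The genes and lists were chosen with earlier results of these data known. Values on all 6 arrays are given for genes whose groups do not overlap or whose unadjusted p is under 0.05 and for the 8 with the highest mean level. Inducible chemokines outside that rule were named after their values were seen. Of the other lists, up to 3 genes per direction with a log2 difference of at least 0.32 and groups that do not overlap are named. Alternatives covered background correction, scaling, the filter on dim probes, averaging of probes, the slide and replicate as blocks, marked spots kept, and each array left out. The 75th percentile over spots in place of probes was added after seeing the data. The list of red cell markers is not reported here.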

Additional observations from a re-analysis of the deposited data

How the results depend on the processing

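None of the 35 tested genes was called under the alternatives run for it, 17 for Tnf, Il10, Il17a and Il1a, which the stricter filter removes, and 18 for the others. The smallest adjusted p was 0.0603 (Il21 without knockout 1). The sign of 20 of the 35 differences did not turn, Il6, Il21, Casp1, Cxcl14, Nlrp3 and Socs3 among them. Tnf, Il10 and Il17a are in that count, but entered through wild type only, so their sign is no finding. The cause of the shifts below was not tested. Over all genes, 0 were called, except 60 without knockout 1. Without that array all wild-type arrays were on 1 slide and all knockout arrays on the other, so slide and genotype cannot be told apart there.

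In this paragraph the share of all genes under the same setting follows each count in parentheses. The number with groups that do not overlap was 7 (19.8%), and 11 (20.9%) after normexp, 16 (46.7%) on slide 1 alone, 4 (19.9%) with the 75th percentile over spots and 9 to 18 (23.9% to 37.4%) with 1 array left out, where fewer arrays overlap less by construction. The number with an unadjusted p under 0.05 was 8 (12.4%), and 5 (12.4%) after normexp, 4 (17.5%) with median scaling, 4 (10.95%) with quantile normalization, 5 (10.9%) without a filter, 5 (12.09%) with probes detected on all 6 arrays, 4 (5.58%) with slide as a fixed term, 4 (4.33%) on slide 1 alone and 3 to 14 (7.26% to 14.8%) with 1 array left out. Slide 1 alone holds a single knockout array, assumed there to vary like the wild-type arrays. The median difference was -0.20, and -0.10 after normexp, -0.060 with median scaling, -0.053 with quantile normalization, -0.063 with probes detected on all 6 arrays, -0.085 with slide as a fixed term, -0.085 on slide 1 alone, and -0.28 to -0.033 with 1 array left out. With the replicate number as a block 10 had an unadjusted p under 0.05 (10.7% of all genes), 7 had groups that do not overlap and 0 were called. Detection on all 6 arrays held for 31 genes, and 36 by the laxer mark.

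Signs turned for 15 genes with small differences or wide spread. After normexp Il1a was -0.022 and Tgfb1 -0.0063. With median scaling Il18 was 0.080, Il33 0.097, Cxcl12 0.13, Csf1 0.11 and Tgfb2 0.10. With slide as a fixed term and on slide 1 alone, Il33 was 0.24, Il34 -0.089, Tgfb3 -0.078, Cx3cl1 -0.077 and Ccl4 0.23. With 1 array left out, differences ran for Il34 from -0.050 to 0.18, for Tgfb3 from -0.018 to 0.061, for Csf1 from -0.12 to 0.064, for Ccl2 from -0.77 to 0.42, for Ccl12 from -0.99 to 0.11, for Il33 from -0.22 to 0.12, for Tgfb1 from -0.0040 to 0.081, for Ccl5 from -0.29 to 0.39, for Cxcl12 from -0.11 to 0.040, for Il1b from -0.031 to 0.71, for Cx3cl1 from -0.021 to 0.13 and for Ccl4 from -0.67 to 0.29.

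The differences of the dim genes near the background (Tnf, Il10, Il17a, Il1a) were smaller in size after normexp. Its offset shrinks the differences of dim genes by itself, and those of Il21 and Il6 shrank as well. Whether weak signal limits these 4 genes was not tested. Slide and genotype are separable only through knockout 1, the single knockout array that shares a slide with wild type.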
